A study of Mus musculus with 8 samples.

Results

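Kinesins, centromere proteins and the genes of the mitotic spindle, its checkpoint and its regulators were followed through the differentiation of mouse embryonic stem (ES) cells into cardiomyocytes. Members were taken by symbol. The rule takes every Kif gene with a number, the Cenp, Ncap and Cdca genes, Bub1, Bub1b and Bub3, the Aurora kinases (Aurk), Plk1 and Plk4, the A and B cyclins, Nuf2, Ndc80, Spc24, Spc25, Mad2l1, Ttk, Birc5, Top2a, Cdk1 and Mki67, together with genes whose symbols begin in the same way. It matched 86 of the 13540 genes in the table. By textbook role, 57 of the 86 act in mitosis and are called the mitotic members below. Another 14 are transport kinesins, which carry cargo along microtubules outside mitosis, and 4 are other kinesins (Kif2a, Kif24, Kif26a and Kif26b). A further 8 match by name but were listed under another main role, and 3 (Aurkaip1, Plk1s1 and Ccnb2-ps) were in no role list. Counts of mitotic members below leave these genes out, although Mad2l1bp acts on the checkpoint and Plk1s1 at the spindle pole.

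Poly(A) RNA of cells of the 129/Ola mouse strain was sequenced on an Illumina GAIIx at 4 stages of 1 course: ESC (undifferentiated cells, day 0), MES (mesodermal cells, day 4), CP (cardiac precursors, day 5.3) and CM (cardiomyocytes, day 10). The cells differentiated as floating aggregates that were dispersed and re-formed with Activin A, BMP4 and VEGF, and later as plated cultures given VEGF, basic FGF and FGF10. Each stage had 2 libraries, which the design text describes as biological duplicates, but the deposited table holds 1 RPKM value per gene and stage (a read count divided by the length of the gene model and by the depth). No SD, test or p-value can therefore be given, and "higher" and "lower" below describe single stage values, with "called" meaning at least 2-fold apart in RPKM + 1.

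Kinesins are motor proteins that use ATP to move along microtubules or to take their ends apart. Some build the mitotic spindle, move chromosomes on it and help to split the cell, and are made mainly in dividing cells. Others carry vesicles, organelles and RNA in cells whether or not they divide. At mitosis, centromeric chromatin recruits the kinetochore, whose Ndc80 complex binds microtubules, the spindle checkpoint holds back anaphase until all chromosomes are attached, and condensin compacts the chromosomes. Heart muscle cells of the embryo still divide, and they leave the cell cycle around birth.

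Depth, estimated from the steps between low values, was 75.3, 61.96, 64.8 and 88.5 M reads in ESC, MES, CP and CM (1 M is 1000000), and the 86 members rested on medians of 4499, 3968, 3408 and 1342 reads in these stages. The fewest reads behind a member were 24, for Ccnb1ip1 in CM. Stage labels were checked against markers. The summed level of 4 ES cell genes (Pou5f1, Nanog, Sox2 and Zfp42) was 1298 RPKM at ESC, 84.5 at MES, 9.37 at CP and 0.420 at CM, that of 4 mesoderm genes (T, Mesp1, Eomes and Mixl1) was 6.52 RPKM at ESC, 297 at MES, 0.586 at CP and 0.107 at CM, and that of 5 cardiomyocyte genes (Actc1, Myh6, Tnnt2, Ttn and Nppa) was 8.30 RPKM at ESC, 6.87 at MES, 917 at CP and 7561 at CM. All 4 ES cell genes were highest in ESC, all 4 mesoderm genes in MES and all 5 cardiomyocyte genes in CM, and of 4 precursor genes Isl1 was highest in CP and Nkx2-5, Tbx5 and Gata4 in CM. Markers of other cell types also differed between stages. Summed blood markers (Hbb-bh1, Hba-x, Gata1 and Itga2b) stood at 1.00 RPKM at ESC, 1.84 at MES, 235 at CP and 8.73 at CM, with Hbb-bh1 listed at 0 in ESC and Hba-x at 0 in ESC and MES. Summed endothelial markers (Pecam1, Cdh5, Tie1 and Kdr) stood at 16.99 RPKM at ESC, 63.9 at MES, 199.7 at CP and 98.4 at CM, with 3 of 4 highest in CP. For smooth muscle (Acta2, Tagln, Myh11 and Cnn1), which shares some of these genes with early cardiomyocytes, the sum was 273 RPKM at ESC, 6.66 at MES, 566 at CP and 2429 at CM, with 4 of 4 highest in CM. For fibroblasts (4 of 5 listed genes in the table) it was 19.2 RPKM at ESC, 3.70 at MES, 24.8 at CP and 177 at CM, with 3 of 4 highest in CM, and of 4 neuronal genes only Tubb3 was in the table, at 97.2 RPKM at ESC, 7.27 at MES, 0.527 at CP and 1.07 at CM. The part of these cells in the differences below was not tested.

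The mitotic members were at about the same level in mesoderm as in ES cells, somewhat lower in cardiac precursors and far lower in cardiomyocytes. Their median level was 98.99% of the ESC value in MES, 67.7% in CP and 16.1% in CM. CM was the lowest of the 4 stages for 57 of 57, beside 5330 of all 13540 genes. In CM, 35 of the 57 stood at 20% of their ESC level or less, 7 at 10% or less, and 2 (Ncaph2 and Cenpb) at 50% or more. Of 13451 genes in the table that had reads in ESC, 1656 stood at 20% or less, 948 at 10% or less and 9574 at 50% or more. In bulk RNA, fewer dividing cells and less of these transcripts per cell cannot be told apart.

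Compared stage by stage, the largest differences lay in the last step, from day 5.3 to day 10. That step is longer than the one from day 4 to day 5.3, and rates per day were not compared. In MES, 0 mitotic members were called higher than in ESC and 1 lower, Cenpt, against 11.1% and 11.2% of all genes. The median difference in log2(RPKM + 1) was -0.01, with 23 members above 0 and 34 below, beside 53.0% and 46.8% of all genes. At 1.5-fold, 3 were higher and 4 lower, against 21.8% and 19.4% of all genes. In CP, 0 were called higher or lower than in MES, against 8.91% and 3.91% of all genes. The differences were nevertheless nearly all of 1 sign, with 56 of 57 lower in CP than in MES, against 52.4% of all genes. The median was -0.50, and Cenpt was the exception. At 1.5-fold, 19 of the 57 were lower in CP, against 13.3% of all genes. In CM, 47 of 57 (82.5%) were called lower than in CP and 0 higher, against 12.8% and 11.3% of all genes, with a median of -1.85 beside -0.15 for all genes. In CM against ESC, 52 of 57 (91.2%) were called lower and 0 higher, against 23.4% and 22.2% of all genes, and the medians were -2.23 for the mitotic members and -0.03 for all genes. The 5 members under 2-fold were Ncaph2, Cenpb, Cenpk, Cenpq and Cenpo, which lay just outside the threshold at -0.999. Cenpt, Cenpk, Cenpq and Cenpo were named after their values had been seen, because they are the exceptions.

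**Figure D1:**
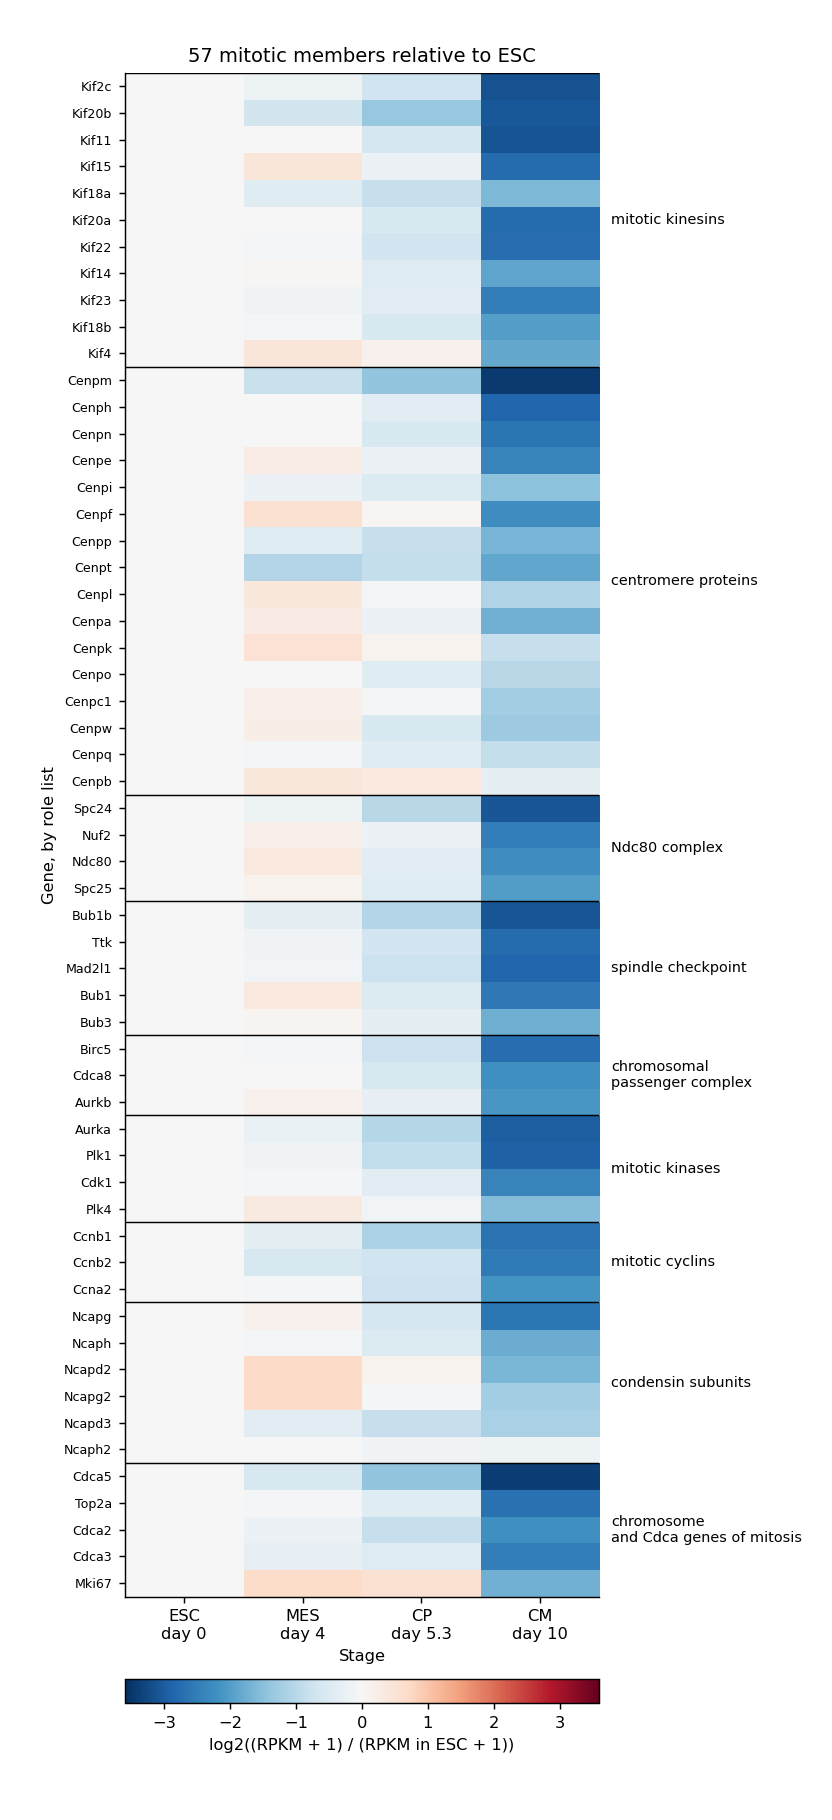
Difference of each stage to ESC in log2(RPKM + 1) for the 57 mitotic members, 1 row per gene and 1 column per stage, grouped by role and ordered within a role by the percentage of the ESC level left in CM. The CM column is the darkest blue in every row, MES is a mix of 23 higher and 34 lower genes, and the CM cells of Ncaph2 and Cenpb are pale.

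Among the 11 mitotic kinesins, all 11 were called lower in CM than in ESC and 10 of 11 lower in CM than in CP. The shares of all genes were 23.4% and 12.8%. Kif20a (ENSMUSG00000003779), which brings the chromosomal passenger complex to the central spindle, had the highest level, 88.7 RPKM at ESC, 88.3 at MES, 60.04 at CP and 12.1 at CM. Kif22, a chromosome-bound kinesin that pushes chromosome arms toward the spindle equator, stood at 67.7 RPKM at ESC, 63.99 at MES, 41.6 at CP and 9.26 at CM. Kif23, a subunit of centralspindlin in cytokinesis, stood at 35.1 RPKM at ESC, 31.7 at MES, 26.7 at CP and 5.46 at CM. In all 3, ESC and MES lay close together, CP was lower, and CM was 13.7% to 15.6% of ESC. Kif11 (ENSMUSG00000012443), also known as Eg5, the motor that pushes the spindle poles apart, had 34.3 RPKM at ESC, 33.97 at MES, 22.4 at CP and 3.10 at CM, so that CM held 9.03% of the ESC level. The 95% interval of this percentage is 8.53 to 9.56, from recovered reads, and it covers counting error only, as do all intervals given here. Kif15, which can share the pole-separating work of Kif11, had 15.3 RPKM at ESC, 20.99 at MES, 13.1 at CP and 1.41 at CM and was the mitotic member with the largest difference of CM to CP, -2.55. It was highest in MES, as were Kif4 and Kif14. Kif4, a chromosome-bound motor that also shapes the central spindle, had 12.9 RPKM at ESC, 17.9 at MES, 14.5 at CP and 2.87 at CM. Kif14, which acts in cytokinesis, had 5.80 RPKM at ESC, 6.07 at MES, 3.92 at CP and 0.816 at CM.

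Kif2c, also called MCAK, takes microtubules apart at centromeres and stood at 27.00 RPKM at ESC, 23.7 at MES, 15.9 at CP and 2.17 at CM. Its CM level was 8.05% of ESC (7.49 to 8.65), the lowest percentage of the 11. Kif20b, which acts late in cytokinesis, had 26.7 RPKM at ESC, 16.6 at MES, 9.76 at CP and 2.36 at CM, with MES and CP already at 62.1% and 36.6% of ESC. Kif18b, a motor at the plus ends of astral microtubules, had 19.8 RPKM at ESC, 18.8 at MES, 13.2 at CP and 4.23 at CM. Kif18a, which limits the swinging of chromosomes at the spindle equator, had 3.496 RPKM at ESC, 2.33 at MES, 1.52 at CP and 0.454 at CM; it was the only mitotic kinesin under 2-fold between CM and CP (-0.79), on a scale that understates differences of low values, since its CM level was 29.9% of CP. The summed level of the 11 mitotic kinesins was 337 RPKM at ESC, 324 at MES, 223 at CP and 44.3 at CM. That of the 14 transport kinesins was 103 RPKM at ESC, 123 at MES, 153 at CP and 181 at CM, so the ratio of the transport sum to the mitotic sum was 0.307, 0.378, 0.687 and 4.09 in ESC, MES, CP and CM. These 2 sets of motors thus changed places in order of level between CP and CM.

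**Figure D2:**
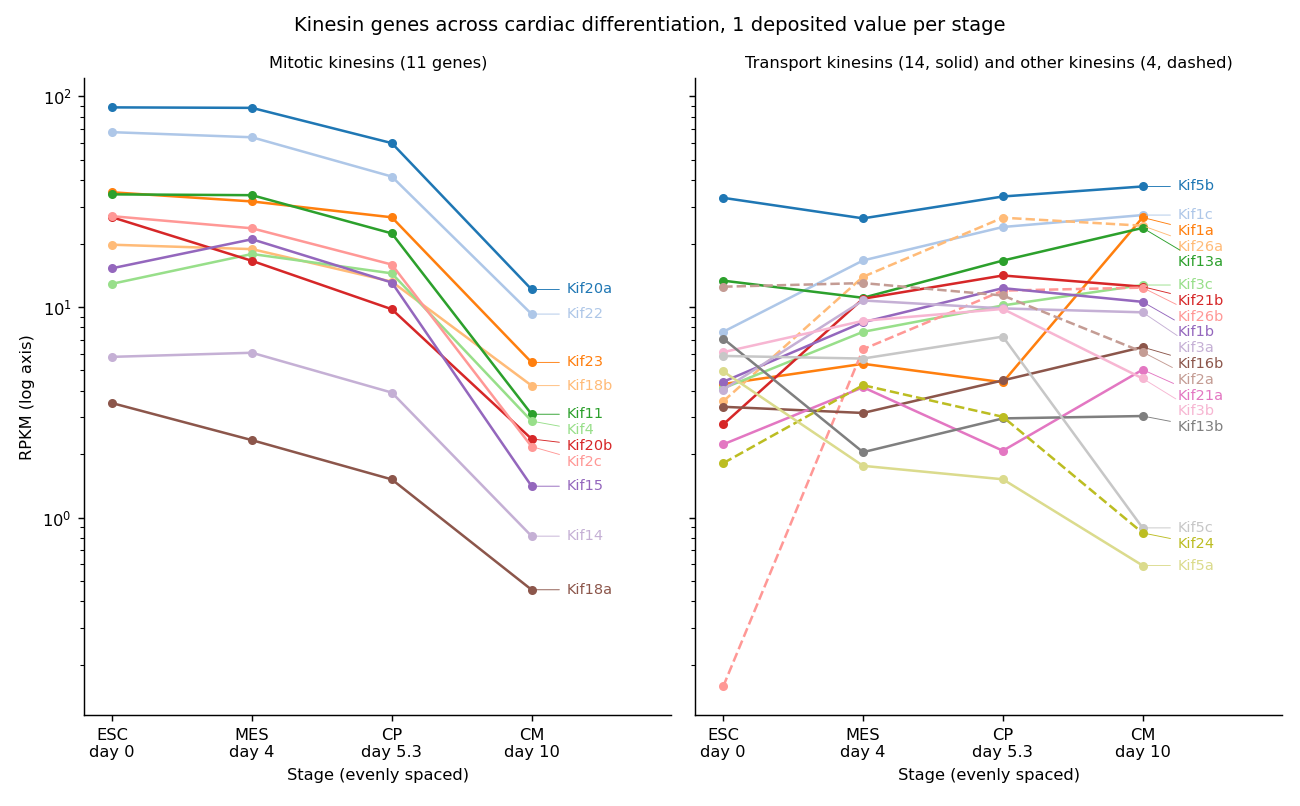
RPKM on a log axis at the 4 stages for the 11 mitotic kinesins (left) and for the 14 transport kinesins (solid lines) and 4 other kinesins (dashed lines, right), with 1 deposited value per point. Every mitotic kinesin is lowest in CM, between 0.454 and 12.1 RPKM, whereas on the right Kif1a is far higher in CM than in CP, Kif5c and Kif5a are among the lowest in CM, and Kif26b is at 0.158 RPKM in ESC.

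The 16 centromere proteins were uneven, with 12 called lower in CM than in ESC, beside 23.4% of all genes. Their percentages of the ESC level lay between 6.93% and 78.3%. Cenpa, the histone variant that marks centromeric chromatin, had 44.9 RPKM at ESC, 55.3 at MES, 38.9 at CP and 12.8 at CM. Cenpf, a large protein of the outer kinetochore, had 23.4 RPKM at ESC, 34.9 at MES, 24.5 at CP and 4.16 at CM. Cenpm, a subunit of the constitutive centromere network, had 40.9 RPKM at ESC, 22.95 at MES, 14.7 at CP and 2.83 at CM, and at 6.93% of ESC in CM (6.14 to 7.79) it kept the smallest share of any mitotic member. Cenpa and Cenpf were highest in MES and Cenpm in ESC, and all 3 were lowest in CM. Cenpb, which binds a short sequence in centromeric satellite DNA, had 23.7 RPKM at ESC, 31.9 at MES, 30.6 at CP and 18.6 at CM, and its CM level was 78.3% of ESC (75.9 to 80.7). Cenpt, a DNA-binding centromere protein that recruits the Ndc80 complex, had 35.9 RPKM at ESC, 16.7 at MES, 19.2 at CP and 9.08 at CM. It was the only mitotic member called lower in MES than in ESC (-1.06) and the only one higher in CP than in MES (0.19). The low-level subunits Cenpk, Cenpq and Cenpo stayed under the 2-fold threshold with at most 4.12 RPKM in ESC, where the added 1 compresses ratios. Their CM levels were 32.2%, 44.3% and 34.6% of ESC. Cenpk rested on 97 reads in CM, which gives an interval of 25.3 to 40.9 for its percentage.

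All 4 subunits of the Ndc80 complex, the main microtubule binder of the kinetochore, were called lower in CM than in ESC and than in CP. Among all genes, 23.4% and 12.8% were. Spc24 had the highest level, 83.9 RPKM at ESC, 73.7 at MES, 41.6 at CP and 9.01 at CM. Ndc80 itself had 17.5 RPKM at ESC, 22.7 at MES, 13.3 at CP and 2.92 at CM. Nuf2, its partner in the microtubule-binding arm, had 14.1 RPKM at ESC, 16.3 at MES, 12.1 at CP and 1.70 at CM, and Spc25, the partner of Spc24 at the kinetochore end, had 12.8 RPKM at ESC, 14.1 at MES, 9.31 at CP and 2.41 at CM. Spc24 was highest in ESC, and the other 3 were highest in MES. Spc24 had a higher RPKM than its 3 partners at every stage, but this order depends on the gene model lengths. The model of Spc24 was 691 bases long, against 2156 for Ndc80, 2562 for Nuf2 and 3188 for Spc25. In recovered reads Spc24 had 551 in CM, fewer than Ndc80 (558) and Spc25 (681) and more than Nuf2 (385).

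The 5 spindle checkpoint genes were likewise all called lower in CM than in ESC, beside 23.4% of all genes, with a median of 11.1% of the ESC level. Bub3 (ENSMUSG00000066979), which docks checkpoint proteins on kinetochores, had the highest mean level of the 57 mitotic members, 127 RPKM at ESC, 137 at MES, 101 at CP and 37.2 at CM. Bub1b, also known as BubR1, an inhibitor of the anaphase promoting complex, had 65.6 RPKM at ESC, 51.3 at MES, 31.03 at CP and 6.83 at CM. Mad2l1, also known as Mad2, which turns unattached kinetochores into a diffusible stop signal, had 32.4 RPKM at ESC, 30.1 at MES, 18.4 at CP and 3.58 at CM. Bub1b and Mad2l1 stood in CM at 10.4% (10.0 to 10.9) and 11.1% (10.2 to 11.96) of ESC, and Bub3 at 29.2% (28.2 to 30.2). The other 2, the kinases Bub1 and Ttk, stood at 13.3% and 10.8%.

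The kinases and cyclins that drive mitosis followed the same course. Plk1 (ENSMUSG00000030867), a kinase that acts on centrosomes, kinetochores and cytokinesis, had 87.9 RPKM at ESC, 80.01 at MES, 46.7 at CP and 10.7 at CM. Aurka, the Aurora kinase of spindle poles, had 53.9 RPKM at ESC, 45.8 at MES, 26.01 at CP and 6.04 at CM. Cdk1, the kinase that starts mitosis, had 52.4 RPKM at ESC, 49.9 at MES, 39.5 at CP and 9.05 at CM. Plk4, which controls centriole copying, differed the least of the 4, with 12.7 RPKM at ESC, 16.2 at MES, 11.8 at CP and 3.62 at CM. All 4 were lowest in CM, and Plk4 alone was highest in MES. Ccnb2, a B cyclin partner of Cdk1, had 84.01 RPKM at ESC, 55.7 at MES, 51.1 at CP and 13.5 at CM. Ccna2, the A cyclin of S phase and mitotic entry, had 70.5 RPKM at ESC, 67.1 at MES, 41.4 at CP and 15.1 at CM. Ccnb1, the other B cyclin, had 17.1 RPKM at ESC, 13.3 at MES, 7.16 at CP and 1.87 at CM. All 3 cyclins were highest in ESC and lowest in CM. The level of Ccnb1 is less certain than that of the other cyclins here. Of the 32-base words of its longest transcript, 46.8% also occur in other genes, mainly in Ccnb1-ps. This share exceeded 10% in 5 of the 86 members, among them Plk1 (14.6%, mainly Plk-ps1) and Plk4 (10.1%).

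The 3 subunits of the chromosomal passenger complex, which corrects faulty attachments, kept similar proportions. Aurkb, its kinase, had 30.6 RPKM at ESC, 34.3 at MES, 24.8 at CP and 6.43 at CM. Birc5, also known as survivin, which binds centromeric chromatin, had 29.1 RPKM at ESC, 27.5 at MES, 16.9 at CP and 3.52 at CM. Cdca8, also known as borealin, which links the parts, had 25.1 RPKM at ESC, 24.8 at MES, 16.3 at CP and 4.64 at CM. All 3 were called lower in CM than in CP and than in ESC, beside 12.8% and 23.4% of all genes. They stood in CM at 12.1% to 21.1% of the ESC level. Of the chromosome genes, Top2a (ENSMUSG00000020914), the topoisomerase that untangles sister DNA, had 90.02 RPKM at ESC, 85.7 at MES, 66.01 at CP and 13.1 at CM. Mki67, a coat of mitotic chromosomes used as a marker of cycling cells, had 37.5 RPKM at ESC, 59.6 at MES, 55.3 at CP and 10.6 at CM. Unlike most mitotic members it was above its ESC level in MES and CP, at 159% and 148%, and only in CM was it lower, at 28.2% (27.5 to 28.9). Cdca5, also known as sororin, which holds sister chromatids together, had 41.6 RPKM at ESC, 27.7 at MES, 14.9 at CP and 3.06 at CM, and Cdca3, a mitotic entry factor, had 40.5 RPKM at ESC, 32.9 at MES, 29.1 at CP and 6.46 at CM. Cdca5 was already at 35.8% of ESC in CP and reached 7.35% in CM.

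The subunits of the 2 condensins lay in separate ranges. Condensin I, which reaches chromosomes after the nuclear envelope breaks down, has Ncapd2, Ncaph and Ncapg as its own subunits, and condensin II, which is nuclear throughout the cycle, has Ncapd3, Ncaph2 and Ncapg2. Ncapd2 had 76.8 RPKM at ESC, 124 at MES, 84.2 at CP and 24.1 at CM, Ncaph had 18.7 RPKM at ESC, 18.02 at MES, 13.1 at CP and 4.76 at CM and Ncapg had 15.4 RPKM at ESC, 17.3 at MES, 9.81 at CP and 1.69 at CM. In CM these condensin I subunits stood at 31.3%, 25.5% and 11.00% of ESC. Ncaph2 had 32.1 RPKM at ESC, 32.00 at MES, 29.2 at CP and 28.3 at CM, Ncapd3 had 17.04 RPKM at ESC, 12.8 at MES, 9.24 at CP and 6.98 at CM and Ncapg2 had 7.27 RPKM at ESC, 12.4 at MES, 6.94 at CP and 2.52 at CM. The condensin II subunits stood in CM at 88.3% (85.7 to 90.9), 41.0% and 34.7% of ESC, above all 3 condensin I subunits, a difference over 3 genes a side that was not tested. Ncaph2 had the highest percentage of the 57 mitotic members, and its difference of CM to ESC, -0.17, was 0.03 after quantile normalization. Strand was not marked in the description of the libraries, and 25.0% of the exon bases of Ncaph2 overlap Sco2 on the opposite strand, so its reads cannot be told apart from those of that gene there. In addition, 15.8% of the 32-base words of the longest Ncaph2 transcript occur in other genes, most of all in Gm7535. Exon overlap on the opposite strand exceeded 10% in 10 members, among them Kif3c (43.6%, 1110002L01Rik), Kif20a (31.8%, Cdc23), Cenpo (29.4%, Adcy3) and Cenpp (27.5%, Ippk).

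**Figure D3:**
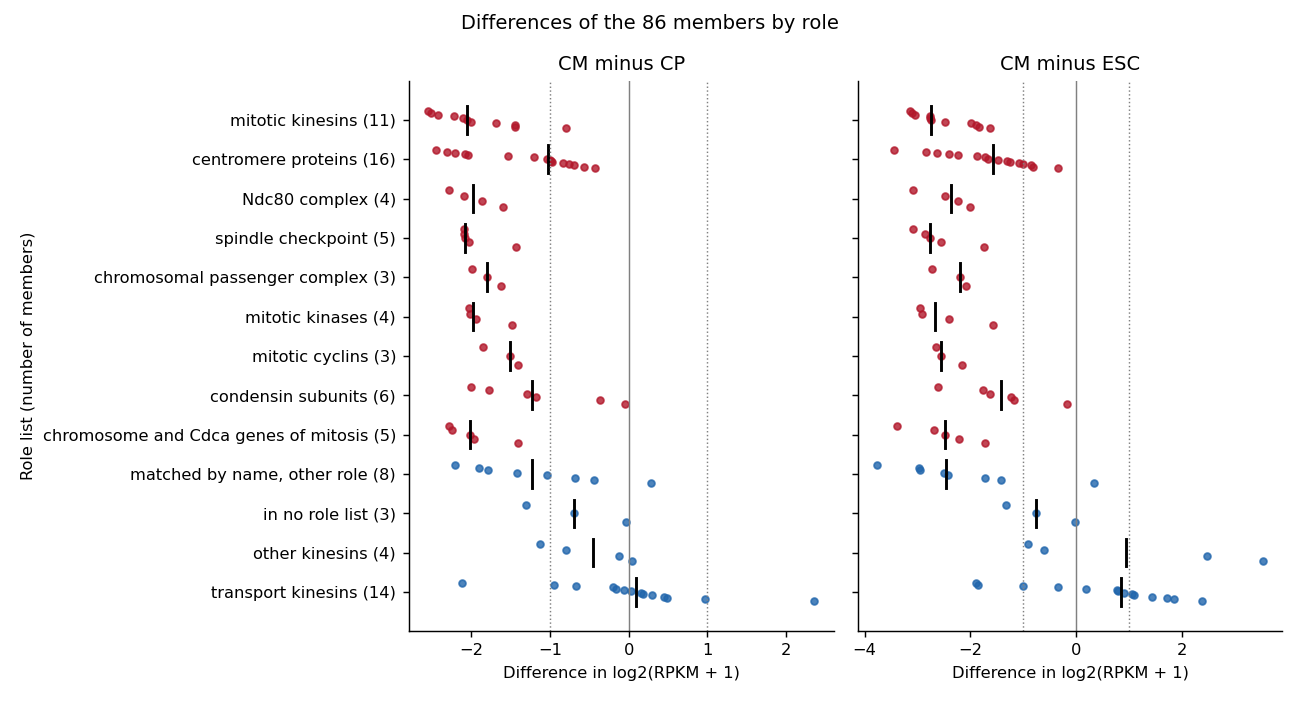
Difference in log2(RPKM + 1) of CM to CP (left) and of CM to ESC (right) for each of the 86 members, by role, with 1 point per gene, a black bar at the median of the role and dotted lines at 2-fold. In all 9 mitotic roles (red) the points lie left of 0, with medians from -1.43 (condensin subunits) to -2.77 (spindle checkpoint) in CM against ESC, while the median of the transport kinesins is 0.85.

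The transport kinesins went several ways, and 10 of the 14 were higher in cardiomyocytes than in ES cells, beside 48.7% of all genes. In CM against ESC, 6 of 14 were called higher (Kif1a, Kif21b, Kif1c, Kif3c, Kif1b and Kif3a) and 3 lower (Kif5a, Kif5c and Kif13b, the last just inside the threshold at -1.001), and the median was 0.85. The shares of 42.9% and 21.4% stand beside the 22.2% and 23.4% of all genes given above. Kif13b at -0.96 with median of ratios scaling, and Kif3a at 0.96 with quantile normalization, were under 2-fold, and Kif21a, at 0.90, was over 2-fold at a pseudocount of 0.1 (1.14) or 0.5 and with stages scaled to 1 sum (1.11). Part of the difference was present by MES, where 3 were called higher than in ESC (Kif21b, Kif3a and Kif1c) and 2 lower (Kif13b and Kif5a), beside 11.1% and 11.2% of all genes, with a median of 0.35. The count of higher calls in MES was 2 with median of ratios scaling or quantile normalization. In CP, 0 were called higher or lower than in MES, beside 8.91% and 3.91% of all genes. The median was 0.34, with 10 of the 14 above 0, beside 47.2% of all genes. In CM, 1 was called higher than in CP (Kif1a) and 1 lower (Kif5c), beside 11.3% and 12.8% of all genes, with a median of 0.09, which was -0.01 after scaling all stages to 1 sum. These 2 counts were 2 and 3 at a pseudocount of 0.1.

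Kif5b, the heavy chain of conventional kinesin found in most tissues, had the highest level of the 14, 33.00 RPKM at ESC, 26.4 at MES, 33.5 at CP and 37.4 at CM. Its relatives Kif5a and Kif5c are known mainly from neurons. Kif5c had 5.86 RPKM at ESC, 5.69 at MES, 7.24 at CP and 0.894 at CM, and Kif5a had 4.94 RPKM at ESC, 1.76 at MES, 1.52 at CP and 0.592 at CM. Kif5b was close to even over the course, Kif5c was close to even up to CP and at 12.3% of its CP level in CM, and Kif5a was lower from MES on. Kif5b therefore made up 75.3%, 78.0%, 79.3% and 96.2% of the summed RPKM of the 3 Kif5 genes in ESC, MES, CP and CM.

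Kif1a (ENSMUSG00000014602), which carries vesicle precursors and is best known in neurons, had 4.31 RPKM at ESC, 5.37 at MES, 4.39 at CP and 26.6 at CM. Its first 3 stages were alike and CM was 618% of ESC (588 to 650), the largest difference among the transport kinesins, 2.36 against CP and 2.38 against ESC. The only neuronal marker in the table, Tubb3, stood at 1.07 RPKM in CM, against 0.527 RPKM in CP and far more in ESC, as given above. Little about neurons can be read from 1 of 4 listed genes, and the cells behind the Kif1a level were not tested. Kif1b, a carrier of mitochondria and vesicles, had 4.41 RPKM at ESC, 8.47 at MES, 12.3 at CP and 10.6 at CM. Kif1c (ENSMUSG00000020821), a motor of vesicles and of RNA transport, had 7.63 RPKM at ESC, 16.6 at MES, 23.99 at CP and 27.3 at CM. Both were higher from MES on, Kif1b with its highest value in CP and Kif1c in CM.

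Kif3a and Kif3b form, with Kifap3, the motor that builds cilia, and Kif3c can take the place of Kif3b beside Kif3a. Kif3a had 4.05 RPKM at ESC, 10.7 at MES, 9.85 at CP and 9.44 at CM. Kif3b had 6.11 RPKM at ESC, 8.60 at MES, 9.79 at CP and 4.58 at CM. Kif3c had 4.11 RPKM at ESC, 7.62 at MES, 10.2 at CP and 12.7 at CM. Kif3a was higher in every later stage than in ESC, Kif3c was highest in CM, and Kif3b was lower in CM than in CP, by a difference in log2(RPKM + 1) of -0.95. The ratio of Kif3c to Kif3b, both per length, was 0.673 (0.634 to 0.716) at ESC, 0.887 (0.841 to 0.935) at MES, 1.04 (0.9924 to 1.09) at CP and 2.78 (2.65 to 2.92) at CM. The large opposite-strand overlap of Kif3c given above applies to this ratio.

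Kif13a, a motor of endosomes and the Golgi, had 13.3 RPKM at ESC, 11.1 at MES, 16.6 at CP and 23.8 at CM. Kif13b, its close relative, had 7.08 RPKM at ESC, 2.05 at MES, 2.96 at CP and 3.04 at CM. The 2 genes differed in direction, with Kif13a highest in CM and Kif13b highest in ESC. Kif16b, a motor of early endosomes, had 3.36 RPKM at ESC, 3.14 at MES, 4.48 at CP and 6.45 at CM. Kif21b, which damps the growth of microtubules and is known from neurons and lymphocytes, had 2.77 RPKM at ESC, 10.9 at MES, 14.1 at CP and 12.49 at CM, and Kif21a, its relative, had 2.23 RPKM at ESC, 4.16 at MES, 2.08 at CP and 5.04 at CM. Kif21b was at 395% of ESC already in MES, whereas Kif21a was high in MES and CM and low in ESC and CP.

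Among the 4 other kinesins, Kif26a and Kif26b were far higher after ESC. Kif26b (ENSMUSG00000026494), which lacks motor activity and takes part in cell adhesion in the developing kidney, had 0.158 RPKM at ESC, 6.30 at MES, 11.97 at CP and 12.4 at CM, resting on 6803 reads in CM, against 74 in ESC. The ESC value has a 95% Poisson interval of 0.124 to 0.198 RPKM. Kif26a, its relative and a negative regulator of GDNF signalling in gut neurons, had 3.57 RPKM at ESC, 13.9 at MES, 26.6 at CP and 24.3 at CM. Differences of CM to ESC were 3.53 for Kif26b and 2.47 for Kif26a, larger than that of any transport kinesin. Kif2a, a depolymerase of interphase and mitosis, had 12.49 RPKM at ESC, 12.99 at MES, 11.3 at CP and 6.11 at CM. Kif24, a depolymerase of centrioles that holds back cilia, had 1.81 RPKM at ESC, 4.26 at MES, 3.01 at CP and 0.846 at CM, highest in MES and lowest in CM. As a description, the order of the 57 mitotic members by level was largely the same in CM as in ESC (Spearman rho 0.81 over 57 genes), while that of the transport kinesins was not (rho 0.24 over 14 genes), beside 0.61 over all 13540 genes. Within a stage, the values of different genes share their libraries and depth.

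The 8 genes listed under another main role were mostly lower in CM too, with 7 called lower than in ESC, beside 23.4% of all genes. Mki67ip (current symbol Nifk), a nucleolar partner of the Mki67 protein, had 73.1 RPKM at ESC, 52.1 at MES, 27.2 at CP and 12.8 at CM. Cdca7, a chromatin factor of DNA methylation maintenance, had 33.1 RPKM at ESC, 31.9 at MES, 19.3 at CP and 3.41 at CM. Cdca4, a cell cycle transcription cofactor, had 35.6 RPKM at ESC, 44.5 at MES, 28.6 at CP and 10.1 at CM. All 3 were lowest in CM. Ccnb1ip1, also known as Hei10 and needed for meiotic crossovers, had 16.5 RPKM at ESC, 2.34 at MES, 1.06 at CP and 0.287 at CM, lower from MES on and the largest difference of the 86 members in CM against ESC, -3.77. Mad2l1bp, also known as p31comet, which switches the checkpoint off by disassembling Mad2 complexes, was the exception, with 8.39 RPKM at ESC, 9.90 at MES, 8.72 at CP and 10.9 at CM, highest in CM. It was sorted outside the 57 mitotic members and the 5 checkpoint genes. With Mad2l1bp included, CM would not be the lowest stage of every one. Of the 3 genes in no role list, Aurkaip1, a protein of the mitochondrial ribosome, had 61.3 RPKM at ESC, 48.5 at MES, 36.4 at CP and 35.5 at CM. Plk1s1 (current symbol Kiz), a spindle pole protein, had 4.57 RPKM at ESC, 9.34 at MES, 7.85 at CP and 4.47 at CM, and Ccnb2-ps, which is named as a pseudogene of Ccnb2, had 2.69 RPKM at ESC, 1.97 at MES, 2.61 at CP and 0.471 at CM.

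Lists of related genes outside the name rule were set beside the members for CM against ESC. Over all genes, 22.2% were called higher and 23.4% lower. Of 44 other mitosis genes, 40 were called lower and 0 higher (median -2.21), and of 19 genes of replication and S phase, 19 were lower (median -3.01). Cdc20, the activator of the anaphase promoting complex that the checkpoint inhibits, had 147 RPKM at ESC, 131 at MES, 58.6 at CP and 13.6 at CM. Mcm5, a subunit of the replicative helicase, had 251 RPKM at ESC, 212 at MES, 99.6 at CP and 8.10 at CM. Ska2, listed in the table as Fam33a, was the only one of the 44 above 0, with 7.62 RPKM at ESC, 13.5 at MES, 18.3 at CP and 14.2 at CM. Of 13 subunits and cofactors of the anaphase promoting complex, by contrast, 0 were called in either direction (median -0.39). Their differences lay above 0 for 3 and below 0 for 10, from -0.81 (Anapc10) to 0.73 (Cdc16). Anapc5, with the highest mean level, had 105 RPKM at ESC, 76.2 at MES, 82.6 at CP and 79.7 at CM. Cdc16 had 18.4 RPKM at ESC, 32.2 at MES, 30.6 at CP and 31.2 at CM. As background, the complex also works with Fzr1 in resting cells, and the part of this in its levels was not tested. Of 8 G1 cyclins and their kinases, 2 were called higher (Ccnd2 and Ccnd3) and 3 lower (Ccne1, Ccnd1 and Cdk4), beside the 22.2% and 23.4% of all genes. Ccnd3, a D cyclin, had 81.6 RPKM at ESC, 48.9 at MES, 84.7 at CP and 181 at CM, and Ccne1, the E cyclin of S phase entry, had 99.1 RPKM at ESC, 38.2 at MES, 13.7 at CP and 3.22 at CM. Of 17 CDK inhibitors and Rb and E2F genes, 6 were called higher and 6 lower, 35.3% each beside the same shares of all genes. The CDK inhibitor Cdkn1a, also known as p21, had 31.1 RPKM at ESC, 19.4 at MES, 18.3 at CP and 158 at CM, and Cdkn1c, also known as p57, had 45.1 RPKM at ESC, 94.6 at MES, 527 at CP and 167 at CM. Cdkn1a was above its ESC level only in CM, and Cdkn1c was highest in CP. The CDK inhibitor gene Cdkn2a was called lower in CM, by a difference in log2(RPKM + 1) of -3.19, with 17.3 RPKM at ESC, 0.855 at MES, 0.409 at CP and 1.00 at CM. Cdkn2b had 5.34 RPKM at ESC, 0.769 at MES, 0.249 at CP and 2.46 at CM, a difference of -0.87 between CM and ESC.

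Partners of the transport kinesins were also compared in CM against ESC. Of 11 kinesin light chains and adaptors, 2 were called higher in CM than in ESC and 1 lower (median 0.42). Klc1, a cargo-binding light chain of conventional kinesin, had 12.5 RPKM at ESC, 17.8 at MES, 23.96 at CP and 25.9 at CM, and Mapk8ip3, also known as JIP3, an adaptor between motors and cargo, had 5.60 RPKM at ESC, 8.61 at MES, 13.5 at CP and 26.1 at CM. Of 15 dynein and dynactin genes, which make up the motor of the opposite direction and its activator, 1 was called higher and 1 lower (median 0.12). Dync1h1, the dynein heavy chain, had 61.7 RPKM at ESC, 60.4 at MES, 74.7 at CP and 69.1 at CM. Of 12 genes of intraflagellar transport, the cargo trains that the Kif3 motor pulls in cilia, 2 were called higher and 2 lower (median 0.06). In each of these 3 lists the share called in either direction, 6.67% to 18.2%, lay under the 22.2% and 23.4% of all genes. Each share rests on 1 or 2 genes of a list of 11 to 15, so little can be read from it.

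**Figure D4:**
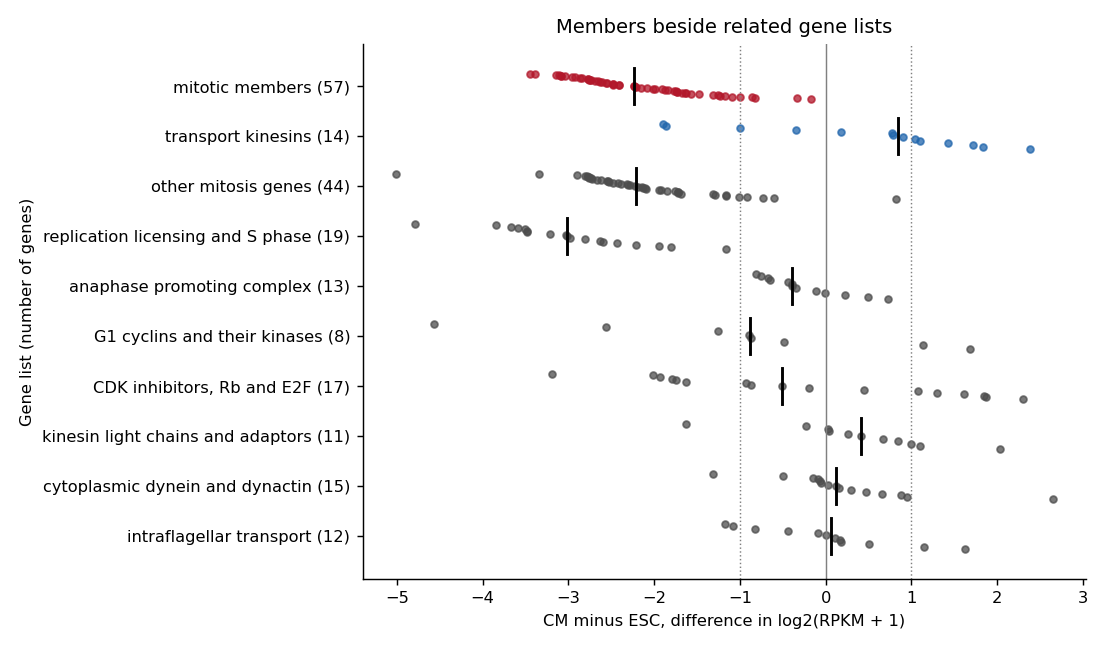
Difference of CM to ESC in log2(RPKM + 1), with 1 point per gene, for the mitotic members, the transport kinesins and 8 related lists, a black bar at each median and dotted lines at 2-fold. The medians of the mitotic members (-2.23), other mitosis genes (-2.21) and replication genes (-3.01) lie beyond the left dotted line, while those of the other lists lie between -0.88 and 0.85.

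Promoters were examined because the mitotic members moved together. Many genes of late cell cycle carry a cell cycle genes homology region (CHR), which is bound by the DREAM complex in resting cells and by B-MYB and FOXM1 complexes in dividing ones, often beside CCAAT boxes bound by NF-Y. RefSeq promoters (build GRCm38.p6, 250 bases before to 50 bases after the first listed start) were found for 52 of the 57 mitotic members, 10 of the 14 transport kinesins and 10206 genes of the table. Both strands were searched for TTTGAA or TTCGAA (CHR), CCAAT, and TTTCCCGC or TTTGGCGC (E2F). TTCGAA is its own reverse complement and was counted once, and matches of different motifs may overlap. The 4 mitotic members with the highest mean RPKM whose promoter holds both CHR and CCAAT are printed, with 150 bases before and 30 from the start on, and Kif1c, the transport kinesin with the highest mean RPKM that has a promoter in the table, is shown for contrast. Capitals mark CHR and CCAAT matches on either strand, and each sequence is read 5′ to 3′ along its gene. The regions are chr7:131560220-131560399 on the plus strand for Bub3, chr6:125191557-125191736 on the minus strand for Ncapd2, chr11:99024160-99024339 on the minus strand for Top2a, chr7:122159285-122159464 on the plus strand for Plk1 and chr11:70700398-70700577 on the plus strand for Kif1c.
Bub3: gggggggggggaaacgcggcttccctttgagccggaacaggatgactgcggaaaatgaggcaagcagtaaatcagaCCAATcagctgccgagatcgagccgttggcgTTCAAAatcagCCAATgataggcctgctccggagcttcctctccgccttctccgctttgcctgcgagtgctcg
Ncapd2: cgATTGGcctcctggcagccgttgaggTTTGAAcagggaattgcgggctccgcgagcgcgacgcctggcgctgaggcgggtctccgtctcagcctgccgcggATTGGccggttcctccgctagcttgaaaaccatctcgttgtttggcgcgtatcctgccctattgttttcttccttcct
Top2a: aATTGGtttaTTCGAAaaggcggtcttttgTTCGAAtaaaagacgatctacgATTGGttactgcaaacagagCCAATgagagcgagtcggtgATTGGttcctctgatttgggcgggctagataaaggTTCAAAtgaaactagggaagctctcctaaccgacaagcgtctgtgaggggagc
Plk1: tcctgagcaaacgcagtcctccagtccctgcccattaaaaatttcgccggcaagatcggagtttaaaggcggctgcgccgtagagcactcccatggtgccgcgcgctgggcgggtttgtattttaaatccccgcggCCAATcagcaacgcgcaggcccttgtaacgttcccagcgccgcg
Kif1c: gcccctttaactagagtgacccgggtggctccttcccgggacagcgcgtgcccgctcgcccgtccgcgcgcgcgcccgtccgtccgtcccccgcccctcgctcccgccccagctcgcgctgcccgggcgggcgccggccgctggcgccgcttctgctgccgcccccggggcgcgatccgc

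Positions count from the annotated start, whose base is 1 and whose preceding base is -1. The Bub3 stretch held a CHR on the opposite strand with its first letter at -43, between CCAAT boxes at -74 and -32. In the printed Ncapd2 stretch the CHR began at -123, with inverted CCAAT boxes (ATTGG) at -148 and -48, and a further box lay upstream of it at -177. The printed Top2a stretch held 3 CHR matches, at -140, -120 and -23, and 4 CCAAT boxes. Upstream of it, the searched promoter also held a CHR at -179 and CCAAT boxes at -227 and -189. Plk1 showed a CCAAT box at -14, and its CHR lay at bases 31 to 36, beyond the printed end. The Kif1c stretch held none of these letters.

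A CHR was found in 34 of 52 promoters of mitotic members (65.4%), against 13.4% of all 10206 promoters, and in 0 of 10 promoters of transport kinesins. CCAAT was found in 34 of the 52 (65.4%), in 3 of the 10 and in 38.6% of all promoters, and both together in 27 of the 52 (51.9%) and 5.81% of all. The E2F letters were in 8 of the 52 (15.4%) and 3.11% of all. By role, the CHR was in 9 of 10 mitotic kinesins, 4 of 5 checkpoint genes and 6 of 16 centromere proteins. Among the other kinesins, Kif24 and Kif26b held both a CHR and a CCAAT box, and Kif26b was higher in CM than in ESC. Members with a CHR had a median difference of CM to ESC of -2.48 (34 genes, 33 called lower), and those without one of -1.65 (18 genes, 14 called lower). The exception with a CHR was Ncaph2. The members with and without a CHR were not matched for role or level. Most centromere proteins lacked a CHR. Among the members without a CHR that were not called lower, Cenpk, Cenpq and Cenpo have low levels, where the scale used understates differences. Cenpb, also among them, has a higher level. A match of letters is not a binding site, and its part in these levels was not tested.

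**Figure D5:**
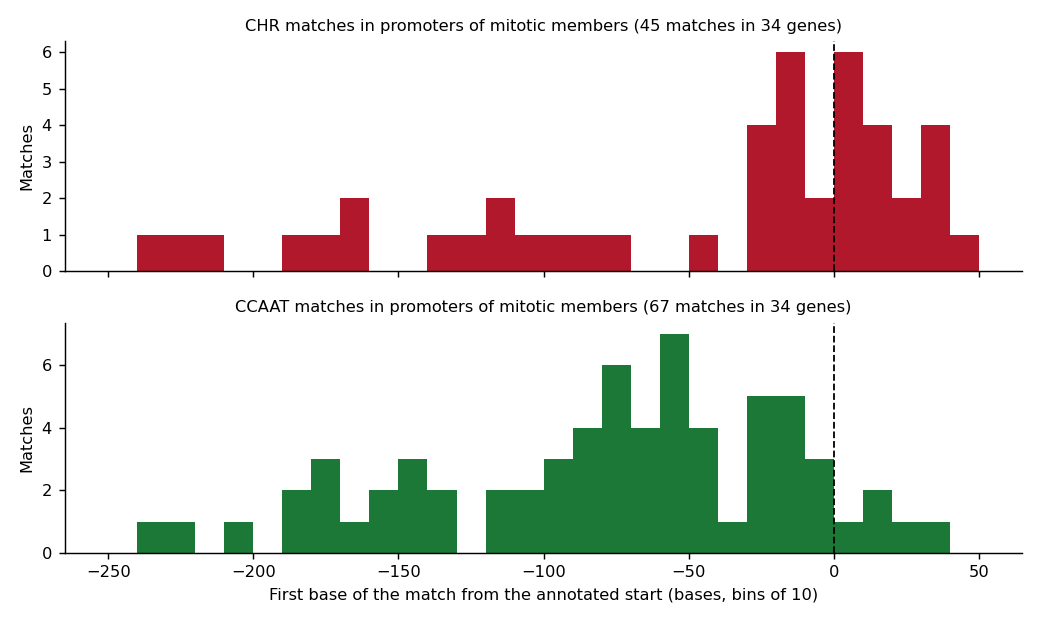
Number of CHR matches (top, 45 in 34 genes) and CCAAT matches (bottom, 67 in 34 genes) in promoters of mitotic members, in bins of 10 bases by the position of their first base relative to the annotated start (dashed line). CHR matches gather around the start, with a median of -18, and CCAAT matches lie further upstream, with a median of -68.

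Within the promoters the motifs had their own places. The median first base was -18 for the 45 CHR matches and -68 for the 67 CCAAT matches. A CHR that began at -100 or later was present in 30 of 52 promoters of mitotic members (57.7%), against 5.10% of all promoters of the table. Positions depend on which start RefSeq lists first for a gene.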

How the data were processed

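Reads of poly(A) RNA were aligned with Novoalign 2.07.00 to genome build mm9, per the submitters' processing notes. The values are RPKM as deposited by the authors, per the file headers, with 1 column for each of 4 stages. How the 2 libraries behind a value were merged, the read counter, the annotation and any filter are not stated in the labels or headers. Each listed gene reaches at least 1.00 RPKM in some stage, so a listed gene missing from the table cannot be called absent from the cells.

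Differences were taken in log2(RPKM + 1), which understates those of low genes, and counted at 2-fold beside the same counts over all 13540 genes. With 1 value per stage the planned limma fit for separate libraries was not applicable. Depth and whole reads were recovered from the steps between low values and exon lengths of GENCODE M21 (1 M is 1000000 reads). With some whole gene model length, reads came out whole in every stage (within 0.0001 reads plus 6e-07 of the count) for 13523 of 13540 genes. Of these genes 2824 set the depth, and of the other 10716 genes 10700 came out whole, against 4.51% of 1354 genes with wrong depths. The step was also tested on simulated data. The floor of 3 reads for a gene model of 2 kb was 0.0199 RPKM at ESC, 0.0242 at MES, 0.0232 at CP and 0.0169 at CM. The 95% intervals (exact Poisson for levels, Clopper-Pearson for ratios of 2 stages or genes) cover counting error only, because 1 value per stage gives no spread between libraries. PCR copies were not marked, so the intervals may be too narrow even for counting error. Older symbols were matched by gene ID. Shared sequence and exon overlap come from GENCODE M21, and promoters from RefSeq.

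The members, role lists and related lists were chosen with earlier results of these data known. Values are given for every kinesin, and in each other role for the 3 genes with the highest mean RPKM, those with the lowest and highest difference of CM to ESC, and any at least 2-fold above ESC at a later stage. Cenpt, Cenpk, Cenpq, Cenpo, Cenpp, Bub1, Ttk, Ncapd3 and Ncapg2 fall outside that rule and were named after their values were seen, as exceptions or to complete a complex. In each related list the rule took the genes with the highest mean RPKM and those with the lowest and highest difference of CM to ESC. Only some of these are given with values, and Foxm1 and Cdkn2b are given although they fall outside it. Alternatives were other pseudocounts (0.1, 0.5), scalings between stages, a minimum mean of 3 RPKM, 1.5-fold, and other class borders. Python 3.11.15 with pandas 2.3.3, numpy 2.4.6, scipy 1.17.1 and matplotlib 3.10.9 was used.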

Additional observations from a re-analysis of the deposited data

How the results depend on the processing

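No paired analysis was possible because the table holds 1 value per stage, so fits with a replicate block and fits without each replicate were not run. No called direction of the mitotic members or transport kinesins reversed under the alternatives run, but medians near 0 changed sign, that of the transport kinesins in CM against CP to -0.01 with scaled sums or with the other kinesins added. The median of the mitotic members was -2.09 (CM against CP) and -2.61 (CM against ESC) at a pseudocount of 0.1, -2.06 (CM against CP) with stages scaled to sum to 1000000 (scaled sums), and -0.14 (MES against ESC) with median of ratios scaling, a value near 0 that was 0.04 with the scaled sums. Small counts moved more. For transport kinesins in CM against CP, 2 were higher at a pseudocount of 0.1 or 0.5, with scaled sums, median of ratios, quantile normalization or 1.5-fold, and 3 were lower at 0.1, with scaled sums or 1.5-fold, and 2 at 0.5 or with the other kinesins added. In MES against ESC, 1 transport kinesin was lower with a mean of at least 3 RPKM, 5 were higher with the other kinesins added, and 6 at 1.5-fold. At 1.5-fold, 3 mitotic members were higher and 4 lower in MES than in ESC, 19 were lower in CP than in MES, and 1 transport kinesin was lower in CP than in MES. Scaled sums also lessen the weight of the added 1, because the deposited values summed to only 240579 (CP) to 264636 RPKM (ESC) per stage. Beyond that, the cause of these changes was not tested. The median of all genes in CM against CP was -0.15 as deposited, -0.29 with scaled sums and -0.04 with median of ratios. Of 66 named members, the sign of CM against ESC changed for Ncaph2 (0.03, quantile) and Plk1s1 (0.02, median of ratios).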

Other observations

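Some genes carry a current symbol that fits the names used here but an older symbol in the table, and they were left out of the 86. Apitd1 (now Cenps), a DNA-binding subunit of the centromere network, had 12.3 RPKM at ESC, 14.6 at MES, 7.61 at CP and 1.10 at CM. Mlf1ip (now Cenpu), another subunit, had 5.08 RPKM at ESC, 4.51 at MES, 3.82 at CP and 0.514 at CM. Both were lowest in CM, with differences of CM to ESC of -2.66 and -2.01. Stra13 (now Cenpx), the partner of Cenps, had 18.2 RPKM at ESC, 13.6 at MES, 10.4 at CP and 11.1 at CM, so it was not lower in CM than in CP, unlike Apitd1. The kinesin-binding protein gene 2510003E04Rik (now Kif1bp) had 15.0 RPKM at ESC, 14.1 at MES, 14.6 at CP and 16.2 at CM, nearly even over the course.

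Among the related genes, Dynlt3, a light chain of dynein that also binds Bub3, had 2.16 RPKM at ESC, 4.17 at MES, 7.56 at CP and 18.9 at CM, while Bub3 was lowest in CM. Dynll1, a dynein light chain with many other partners, was lower in CM than in ESC by the difference -1.31. Mybl2, the B-MYB factor, had 91.8 RPKM at ESC, 13.4 at MES, 9.44 at CP and 1.87 at CM. Its level in MES was thus already far under ESC, at a stage where the median of the mitotic members was 98.99% of ESC. Foxm1 went the other way in MES, with 16.1 RPKM at ESC, 29.4 at MES, 17.0 at CP and 3.46 at CM. The part of either factor in the levels of the mitotic members was not tested.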
